A study of Saccharomyces cerevisiae with 4 samples.

Results

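Of the 10 budding yeast genes described here, all but EHT1 act in the pathway that makes, lengthens, desaturates and activates fatty acids, without covering all of its enzymes. EHT1 encodes an enzyme that uses acyl-CoA. They were chosen with earlier results of these data known and read by systematic identifier. They are ACC1, FAS1, FAS2, OLE1, ELO1, ELO2, ELO3, FAA1, FAA4 and EHT1, and all 10 were found among the 6688 identifiers of the deposited table. The libraries came from polyadenylated RNA of Saccharomyces cerevisiae in exponential growth in YPD, a rich glucose medium. There were 2 libraries of wild-type cells (WT) and 2 of the strain labelled nhp6ab, the usual name for cells that lack NHP6A and NHP6B, the genes of a pair of small DNA-bending proteins that work with the histone chaperone FACT. The labels give no other treatment or time point, and they do not state the strain background, the deleted bases, the number of clones or whether the libraries of a strain came from separate cultures, so the p-values cover just the scatter among these libraries, which may be technical.

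Fatty acids are made in the yeast cytosol from acetyl-CoA. Acetyl-CoA carboxylase (Acc1) makes malonyl-CoA, and the fatty acid synthase, a large complex of a beta subunit (Fas1) and an alpha subunit (Fas2), condenses it into saturated acyl chains. The desaturase Ole1 introduces the double bond of palmitoleic and oleic acid, and the elongases of the endoplasmic reticulum extend chains toward the very long fatty acids of sphingolipids. Free fatty acids are turned into acyl-CoA by synthetases such as Faa1 and Faa4. Genes of this pathway are known targets of the Ino2-Ino4 activator, which binds an inositol-choline response element and is held back by the repressor Opi1, and OLE1 is known to be driven by the membrane-bound activators Mga2 and Spt23.

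The upstream sequences of the 3 genes that fell furthest in nhp6ab are shown first, because they carry the letters of the inositol-choline element. They were read from the R64 genome, the assembly behind sacCer3, on the strand of the gene and 5′ to 3′, and end at or before the start codon. Capitals mark CATGTG, the core of the element, and TTCACAT, a longer form that overlaps it, on either strand. Where both overlap they form TTCACATG or its complement CATGTGAA. FAS1 holds this 8-letter run at 2 places and FAS2 at 1, whereas EHT1 holds the core alone in the bases shown.
FAS1 (chrXI:99771-100020, plus strand, 900 to 651 bases before the start codon): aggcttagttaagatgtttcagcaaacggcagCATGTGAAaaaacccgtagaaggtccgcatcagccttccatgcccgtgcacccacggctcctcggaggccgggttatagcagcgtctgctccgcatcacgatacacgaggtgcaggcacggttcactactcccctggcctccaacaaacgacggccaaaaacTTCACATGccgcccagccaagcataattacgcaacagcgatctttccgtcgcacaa
FAS2 (chrXVI:108402-108651, plus strand, 250 to 1 bases before the start codon): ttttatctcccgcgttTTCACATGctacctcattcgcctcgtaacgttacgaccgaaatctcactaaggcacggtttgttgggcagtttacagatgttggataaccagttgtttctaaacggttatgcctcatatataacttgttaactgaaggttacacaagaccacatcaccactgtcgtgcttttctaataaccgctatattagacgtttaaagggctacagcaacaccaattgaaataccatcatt
EHT1 (chrII:586163-586412, minus strand, 250 to 1 bases before the start codon): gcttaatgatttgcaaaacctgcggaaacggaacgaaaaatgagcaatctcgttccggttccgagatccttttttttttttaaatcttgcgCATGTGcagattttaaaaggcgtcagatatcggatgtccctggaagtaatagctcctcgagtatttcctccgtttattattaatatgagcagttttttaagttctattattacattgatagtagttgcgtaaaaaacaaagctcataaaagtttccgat

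The same letters were present upstream of other genes of the pathway that moved less, and 42 bases around each run are given for comparison.
ACC1 (chrXIV:662068-662109, minus strand, 735 to 694 bases before the start codon): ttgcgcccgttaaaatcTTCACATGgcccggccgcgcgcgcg
ELO2 (chrIII:190406-190447, plus strand, 186 to 145 bases before the start codon): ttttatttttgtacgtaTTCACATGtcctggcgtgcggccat
FAA1 (chrXV:908927-908968, plus strand, 416 to 375 bases before the start codon): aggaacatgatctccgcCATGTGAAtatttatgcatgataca
FAA4 (chrXIII:758967-759008, plus strand, 840 to 799 bases before the start codon): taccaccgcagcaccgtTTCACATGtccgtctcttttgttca
In all, TTCACATG lay within 1000 bases before the start codon in 6 of the 10 genes, against 2.7% of 5996 genes searched. Within 500 bases it lay in 3 of 10, against 1.5%. This run was taken up after its matches in the 10 genes were seen, so its shares are a description and not a test. The planned form TTCACAT lay within 1000 bases in 7 of 10 genes, against 15.4% of all, and within 500 bases in 3 of 10, against 8.4%. The core CATGTG alone was found within 500 bases in 5 of 10 genes, against 13.1% of all. ELO1 and ELO3 held neither form within 1000 bases, OLE1 held the core only, and EHT1 held the core at 159 bases and TTCACAT at 855 bases. The intergenic gap upstream of EHT1 is 384 bases, so its farther match lies inside the neighbouring FZO1. ACTCAAC, the first letters of the low oxygen response element, was found within 500 bases in OLE1 alone among the 10 genes, against 4.5% of all. Further letters were searched in the same windows. The run TTACCC was found within 500 bases in 5 of 10 genes, against 23.2% of all, so among the 10 it was as frequent there as the core of the inositol-choline element. The run CACCCA was found within 500 bases in 2 of 10 genes, against 14.1% of all. The run TATAAA was found within 500 bases in 6 of 10 genes, against 60.5% of all. A match of letters describes the sequence and does not show that a factor binds there.

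The libraries held 22622592 to 29115870 expected counts. NHP6A had 123 and 130 CPM (counts scaled to library size with TMM factors) in WT and 11.1 and 12.0 CPM in nhp6ab, and NHP6B had 80.0 and 86.0 CPM in WT and 33.4 and 32.6 CPM in nhp6ab, so both were lower under the nhp6ab label and neither was at 0. Each of the 10 fatty acid genes had at least 1582 expected counts in every library. All 10 passed the low-count filter, all are annotated with 1 exon, and none overlaps another gene annotated in R64, although 683 identifiers of the table are not in R64 and could not be placed. They lie on 10 different chromosomes. The relatives compared here are not near-identical: the elongase genes share 64.7 to 66.7% of aligned coding bases with each other, and FAA1 and FAA4 share 67.9%. These are alignments over the full coding sequences. Where a gene had local BLAST matches to others, the longest was kept, and the highest identity among these was that of FAA4 to FAA3, at 76.9%.

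The comparison of nhp6ab with WT asks how the transcripts of this pathway differ between these strains. The synthase genes FAS1 and FAS2 and the acyltransferase gene EHT1 fell to 33.9, 38.5 and 29.9% of their WT level. ACC1 and the elongase genes ELO1 and ELO2 fell less, to 66.9, 71.9 and 72.2%, and OLE1 fell to 80.3%. ELO3, FAA1 and FAA4 did not pass the test. With edgeR's quasi-likelihood test and an adjusted p below 0.05 as the threshold, 7 of 10 were lower and 0 higher, whereas 25.0% of the 6422 genes tested were lower and 24.5% higher, 49.5% in all. Because the 10 genes were chosen with earlier results of these data known, such counts describe them and are not a test of the pathway. FAS1, FAS2 and EHT1 were also lower by at least 2-fold, as were 3.07% of all genes. With library size alone 2 of the 10 were higher and 6 lower, beside 3023 and 800 of all genes, and in limma on log2(TPM + 1) 2 were higher and 4 lower, beside 3498 and 594. Without WT replicate 1 the test called 0 of the 10 higher and 6 lower, beside 901 and 1063 of all genes, and without WT replicate 2 it called 0 and 6, beside 918 and 1104. The CPM values of the strains did not overlap in any of the 10, as in 77.5% of all genes tested. The median log2 fold change was -0.47 over the 10 genes and 0.01 over all genes tested. Fewer cells carrying a transcript and less of it per cell cannot be told apart in such libraries, and without a spike-in every change is relative to the other transcripts.

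**Figure D1:**
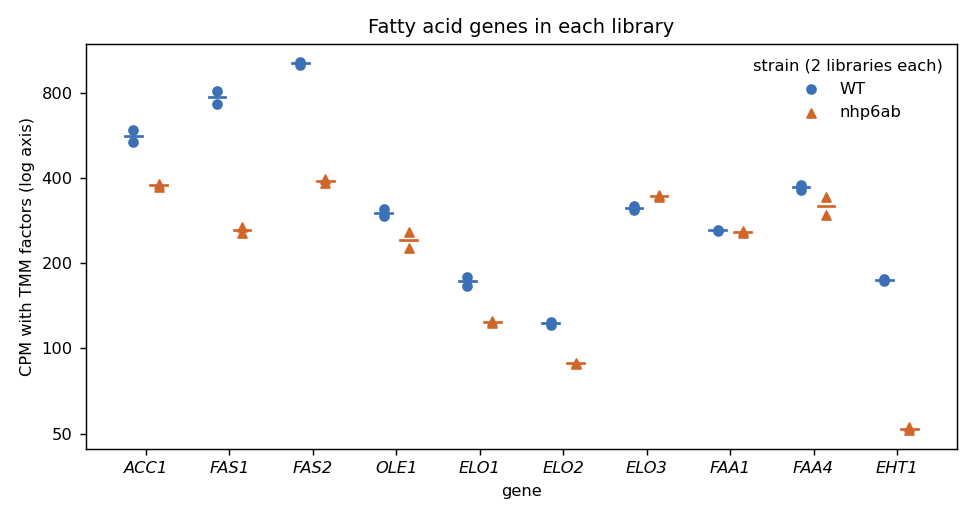
Level of each fatty acid gene in CPM with TMM factors (log axis) in the 2 WT libraries (circles) and the 2 nhp6ab libraries (triangles), with a short line at each mean. FAS1, FAS2 and EHT1 show the widest gaps between strains, and ELO3 is the only one of the 10 whose nhp6ab libraries lie above WT on this scale.

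ACC1 (YNR016C; R64 chromosome XIV, 654673 to 661374, minus strand) encodes the carboxylase that commits acetyl-CoA to fatty acid synthesis. It had 590 and 535 CPM in the WT libraries and 372 and 380 CPM in the nhp6ab libraries. The nhp6ab libraries were both below WT, and the WT libraries differed from each other by more than the nhp6ab libraries did. Its log2 fold change was -0.58 ± 0.07 (SE; edgeR adjusted p = 0.000595), and it was called under each of the 14 alternatives.

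FAS1 (YKL182W; chromosome XI, 100671 to 106826, plus strand) encodes the beta subunit of the synthase. It had 813 and 731 CPM in WT and 255 and 268 CPM in nhp6ab. The groups were far apart, with every nhp6ab value below every WT value (log2 fold change -1.56 ± 0.07 SE, edgeR adjusted p = 1.51e-05). FAS2 (YPL231W; chromosome XVI, 108652 to 114315, plus strand), which encodes the alpha subunit, had 1022 and 1004 CPM in WT and 396 and 385 CPM in nhp6ab. It was the most abundant of the 10 genes by CPM in WT and in nhp6ab, on a scale that does not correct for length, and its libraries agreed closely within each strain (-1.38 ± 0.06, edgeR adjusted p = 1.09e-05). Only 1.01 and 1.49% of the genes tested had a lower log2 fold change than FAS1 and FAS2.

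The subunits kept a similar balance. Per length, in the authors' TPM (transcripts scaled for length and library total), FAS1 had 96.3 and 90.1 in WT and 37.3 and 40.3 in nhp6ab, and FAS2 had 132 and 135 in WT and 62.9 and 62.8 in nhp6ab. The ratio of FAS2 to FAS1 TPM was 1.37 and 1.49 in the WT libraries and 1.69 and 1.56 in the nhp6ab libraries. These ratios did not overlap between strains, but the gap of 1.49 to 1.56 was smaller than the difference between the libraries of either strain. The ratio of ACC1 to FAS1 TPM moved further, from 0.666 and 0.672 in WT to 1.34 and 1.30 in nhp6ab, so ACC1 transcripts went from fewer to more than FAS1 transcripts. With 2 libraries against 2, an exact two-sided permutation test of such a ratio cannot give a p below 0.333.

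OLE1 (YGL055W; chromosome VII, 398628 to 400160, plus strand) encodes the fatty acid desaturase. It had 310 and 292 CPM in WT and 226 and 258 CPM in nhp6ab. The nhp6ab libraries were both below WT but stood apart from each other (-0.32 ± 0.08 SE, edgeR adjusted p = 0.0143). The call was lost without WT replicate 1 (adjusted p = 0.11) or WT replicate 2 (0.0601), with library size alone (-0.10, adjusted p = 0.334) and in limma on log2(TPM + 1) (-0.03, adjusted p = 0.826). In TPM it had 150 and 147 in WT and 135 and 158 in nhp6ab, which overlap. Relative to FAS1, OLE1 TPM was 1.56 and 1.64 in WT and 3.61 and 3.94 in nhp6ab.

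**Figure D2:**
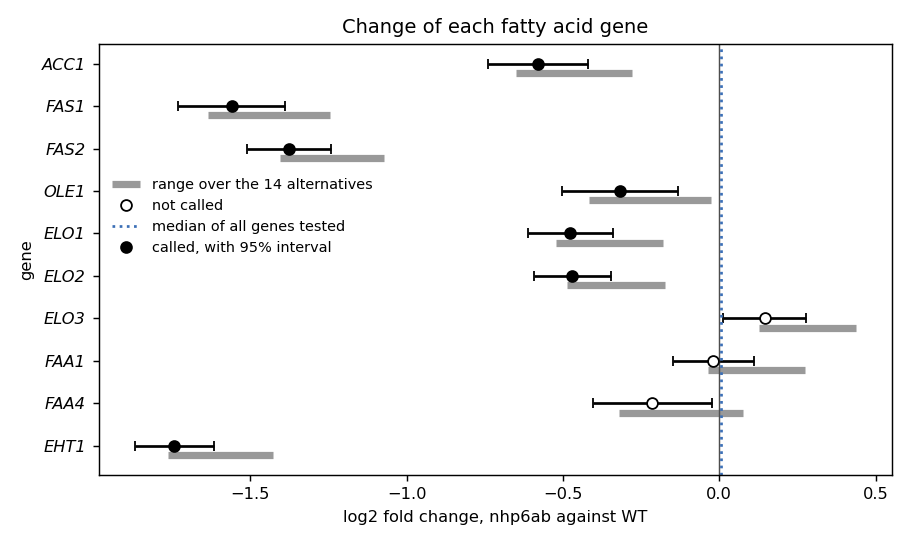
Log2 fold change of nhp6ab against WT for each gene, with the 95% interval of the edgeR fit (circles filled where called, open where not) and, as a grey bar, the range over the 14 alternatives. EHT1, FAS1 and FAS2 stay below -1 under each alternative, and the bars of FAA1 and FAA4 cross 0.

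The elongases differed among themselves. Elo1 extends medium chains, and Elo2 and Elo3 make the very long chains used in sphingolipids. ELO1 (YJL196C; chromosome X, 67850 to 68782, minus strand) had 167 and 178 CPM in WT and 125 and 123 CPM in nhp6ab (-0.48 ± 0.06 SE, edgeR adjusted p = 0.000685). ELO2 (YCR034W; chromosome III, 190592 to 191635, plus strand) had 124 and 121 CPM in WT and 88.9 and 88.4 CPM in nhp6ab (-0.47 ± 0.05, edgeR adjusted p = 0.000471). Both fell by nearly the same amount, with groups that did not overlap, and both lost their call in limma on log2(TPM + 1) (-0.18 and -0.17, adjusted p = 0.0915 and 0.0569). ELO3 (YLR372W; chromosome XII, 867354 to 868391, plus strand) had 309 and 317 CPM in WT and 349 and 344 CPM in nhp6ab. Its nhp6ab libraries lay above WT, but the difference did not pass the threshold (0.15 ± 0.06, edgeR adjusted p = 0.0677, 95% interval 0.01 to 0.28). It was called higher with library size alone (0.36, adjusted p = 0.00144) and in limma on log2(TPM + 1) (0.44, adjusted p = 0.00425). The all-gene medians on those scales were 0.22 and 0.28.

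Within a library, the mix of elongase transcripts does not depend on library scaling. ELO3 made up 49.97 and 49.8% of the summed elongase TPM in WT and 60.5 and 60.4% in nhp6ab. ELO1 made up 30.1 and 31.2% in WT and 24.1 and 24.2% in nhp6ab, and ELO2 made up 20.0 and 18.9% in WT and 15.3 and 15.4% in nhp6ab. Each share differed between strains by more than between the libraries of a strain, with ELO3 taking the share that ELO1 and ELO2 lost. The summed elongase TPM was 448 and 479 in WT and 515 and 522 in nhp6ab. Unlike the shares, this sum depends on scaling, and the median log2 fold change of all genes was 0.28 on log2(TPM + 1).

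**Figure D3:**
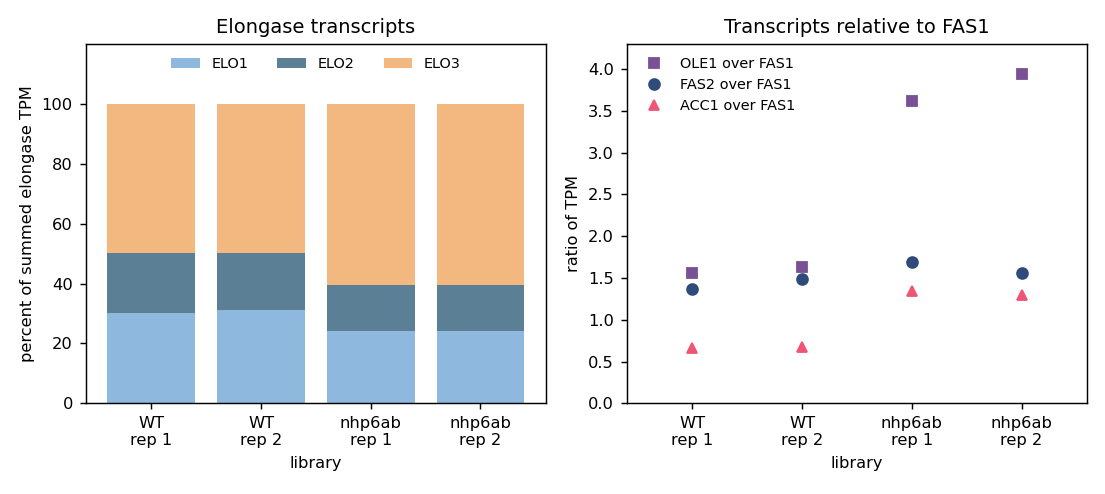
Left, the share of each elongase gene in the summed elongase TPM of each library, as stacked bars in percent. Right, the ratio of OLE1, FAS2 and ACC1 TPM to FAS1 TPM in each library, where the ratios of OLE1 and ACC1 are higher in both nhp6ab libraries (3.61 and 3.94, 1.34 and 1.30) and that of FAS2 stays between 1.37 and 1.69.

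The acyl-CoA synthetase genes did not pass the test. Faa1 and Faa4 provide most of the cell's activation of imported long-chain fatty acids. FAA1 (YOR317W; chromosome XV, 909343 to 911445, plus strand) had 262 and 260 CPM in WT and 256 and 259 CPM in nhp6ab, values within a few CPM of each other (-0.02 ± 0.05 SE, edgeR adjusted p = 0.796, 95% interval -0.15 to 0.11). With library size alone its value was 0.19 and in limma on log2(TPM + 1) 0.27, called higher in both (adjusted p = 0.0231 and 0.0169), below the all-gene medians of 0.22 and 0.28 on those scales. FAA4 (YMR246W; chromosome XIII, 759807 to 761891, plus strand) had 379 and 362 CPM in WT and 296 and 342 CPM in nhp6ab. The nhp6ab libraries were below WT and differed more from each other than the WT libraries did (-0.21 ± 0.08, edgeR adjusted p = 0.0615, 95% interval -0.40 to -0.02). A call as lower was made without nhp6ab replicate 2 (-0.32, adjusted p = 0.0121) and by DESeq2 (adjusted p = 0.028), whereas without nhp6ab replicate 1 the value was -0.12 (adjusted p = 0.277). Its value was -3.98e-05 with library size alone and 0.08 on log2(TPM + 1) (adjusted p = 0.528). In both OLE1 and FAA4, nhp6ab replicate 2 was the higher of its strain. It was also the higher in ACC1, FAS1, FAA1 and EHT1, by smaller amounts, and the lower in FAS2, ELO1, ELO2 and ELO3.

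EHT1 (YBR177C; chromosome II, 584807 to 586162, minus strand) encodes an acyltransferase that joins medium-chain acyl-CoA to ethanol and so makes ethyl esters. It had 175 and 173 CPM in WT and 51.4 and 52.8 CPM in nhp6ab. The libraries of a strain nearly coincided, and the gap between strains was the widest of the 10 genes (-1.74 ± 0.05 SE, edgeR adjusted p = 3.6e-06), a value below which 0.732% of the genes tested lay. EEB1, its paralog of the same activity, did not pass the test (-0.03 ± 0.08, adjusted p = 0.79). It was taken for that kinship and lies outside the rule for named genes. EHT1 held 85.7 and 84.0% of the TPM of the pair in WT and 63.7 and 62.4% in nhp6ab.

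In TPM, which corrects for length, ELO3 was the most abundant of the 10 transcripts in both strains, with 231 ± 10.5 in WT and 313 ± 2.58 in nhp6ab (SD, n = 2 each). In WT it was followed by OLE1 and ELO1 (149 and 142), FAA4 and FAS2 (134 and 133), EHT1 (97.7), FAA1, FAS1 and ELO2 (93.3, 93.2 and 90.1) and ACC1 (62.3). OLE1 and ELO1, FAA4 and FAS2, and FAA1, FAS1 and ELO2 were neighbours whose libraries overlapped. In nhp6ab the order was OLE1 and FAA4 (147 and 141, overlapping), ELO1 (125), FAA1 (113), ELO2 (79.7), FAS2 (62.8), ACC1 (51.2), FAS1 (38.8) and EHT1 (35.8). FAS1, FAS2 and EHT1 together made up 26.7 and 26.1% of the TPM of the 10 genes in WT and 12.6 and 12.2% in nhp6ab. The 10 genes summed to 1213 and 1239 TPM in WT and to 1074 and 1141 TPM in nhp6ab. This sum depends on scaling, and the median log2 fold change of all genes was 0.28 on log2(TPM + 1). Of the expected counts, which are not corrected for length, the 10 genes held 0.384 and 0.371% in WT and 0.255 and 0.274% in nhp6ab.

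With library size alone the median log2 fold change of all genes moved to 0.22, and on log2(TPM + 1) to 0.28. A change of library scaling shifts all genes by about the same amount, so the log2 fold change minus this median is nearly fixed under scaling by construction, and the ends of its range were set by leaving out a library, other than the ends nearest 0 for EHT1 and FAA1, which were set on log2(TPM + 1). Over the 14 alternatives that difference ran from -1.76 to -1.71 for EHT1, from -1.64 to -1.48 for FAS1 and from -1.41 to -1.35 for FAS2. It ran from -0.65 to -0.51 for ACC1, from -0.53 to -0.43 for ELO1 and from -0.49 to -0.45 for ELO2. The ranges of OLE1 (-0.41 to -0.23) and FAA4 (-0.32 to -0.12) were wide for their size, with both ends set by leaving out an nhp6ab library. ELO3 lay 0.12 to 0.16 above the median of all genes, and FAA1 between -0.03 and -0.01 from it.

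ACC1, FAS1 and FAS2 are among the longest genes of the genome, with coding lengths of 6702, 6156 and 5664 bases. The part of gene length in their values was not tested. Of 111 tested genes with a coding length of at least 5000 bases, 51 were called higher and 16 lower, with a median log2 fold change of 0.16, whereas the median was -0.05 over 898 genes shorter than 500 bases. Among those 111 long genes FAS1, FAS2 and ACC1 ranked 3, 4 and 7 from the lowest. EHT1, with 1356 coding bases, fell in a class whose median was -0.02.

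**Figure D4:**
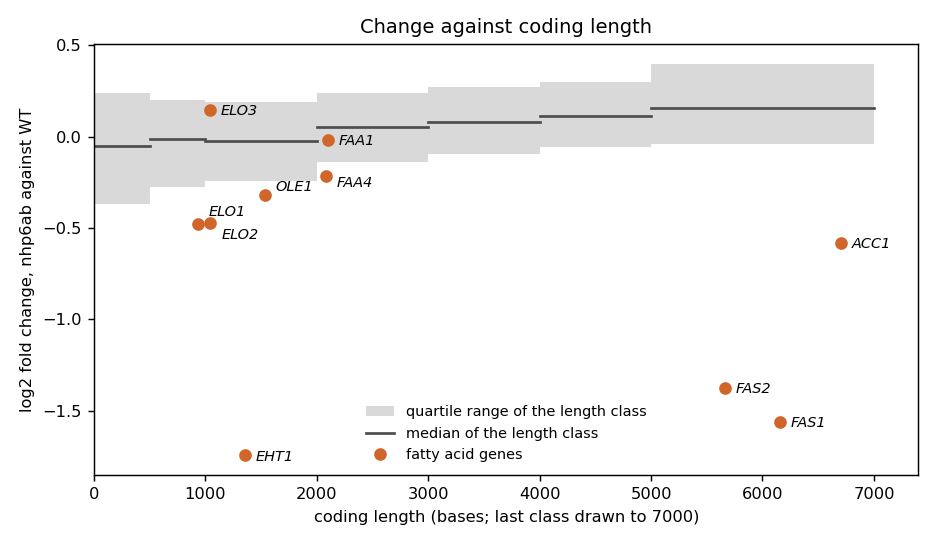
Log2 fold change of nhp6ab against WT over coding length in bases, with the median (line) and the quartile range of genes (grey band) of each length class, and the 10 fatty acid genes as points. The class medians run from -0.05 for the shortest genes to 0.16 for the longest. Each of the 10 genes other than ELO3 and FAA1 lies below the band of its class, FAS1, FAS2 and ACC1 among the longest.

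Of the nearest annotated genes upstream of the 10, 1 was called lower, 3 higher and 6 not called, beside 25.0% lower and 24.5% higher among all genes. The upstream neighbours of FAS1, FAS2 and EHT1 lie on the same strand as the gene. Of these, LOT5 (-0.05 ± 0.05 SE) and SSO1 (0.11 ± 0.06) did not pass the test (edgeR adjusted p = 0.489 and 0.181), and FZO1 rose (0.52 ± 0.05, adjusted p = 0.000344). The neighbour called lower was CDC6 (-0.56 ± 0.16, adjusted p = 0.0234), on the opposite strand to ELO1, which also fell. COA6, on the opposite strand to FAA4, rose (1.24 ± 0.10, adjusted p = 0.000105). SNT1, on the same strand as ELO2, also rose (0.37 ± 0.05, adjusted p = 0.00123). These neighbours were looked up after the values of the 10 genes were seen.

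The letters shown above were also counted over the genome. Of 84 tested genes with TTCACATG within 500 bases, FAS2, ELO2 and FAA1 among them, 45.2% were called lower and 19.0% higher, with a median log2 fold change of -0.15, against 25.0 and 24.5% of all genes. The 6-letter core alone was held within 500 bases by 766 genes, of which 32.0% were lower and 23.2% higher. The planned form TTCACAT was held there by 499 tested genes, 30.26% lower and 24.05% higher, nearer the all-gene shares than the 8-letter run. Within 1000 bases the 8-letter run was held by 154 tested genes, 40.91% lower and 22.73% higher. In that window TTCACAT had 909 genes, 29.04% lower and 24.53% higher. The core had 1533, 28.31% lower and 25.38% higher. The 8-letter run was taken up after its matches in the 10 genes were seen, and neighbouring genes that share an upstream region are counted separately. Among the 10 genes, FAS1, FAS2, ACC1 and ELO2 hold the 8-letter run within 1000 bases and were called lower. FAA1 and FAA4 also hold it in that window and were not called. EHT1, OLE1 and ELO1 lack it and were called lower, and ELO3 lacks it and was not called. A link between these letters and the size of change was not tested.

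Of 10 listed regulators of the pathway 4 fell and 4 rose, with a median log2 fold change of -0.01, beside 25.0% lower and 24.5% higher and a median of 0.01 among all genes. INO2, which encodes a subunit of the activator of the inositol-choline element, fell from 45.6 and 48.4 CPM in WT to 21.2 and 27.6 CPM in nhp6ab (-0.94 ± 0.12 SE, edgeR adjusted p = 0.000759). INO4, its partner, and OPI1, the repressor, had small decreases (-0.21 and -0.19, adjusted p = 0.0275 and 0.0468), which turned to 0.01 and 0.02 with library size alone and were not called in DESeq2 (0.106 and 0.107). Without WT replicate 1 or 2 INO4 had adjusted p = 0.118 and 0.0679 and OPI1 0.0815 and 0.238, INO4 had 0.138 without nhp6ab replicate 2, and OPI1 had 0.139 without nhp6ab replicate 1. INO4 and OPI1 were named for their part in this regulation after their values were seen. SPT23, which encodes an OLE1 activator, rose (0.24 ± 0.05, adjusted p = 0.00765). MGA2, which encodes the other OLE1 activator, was not called (0.10 ± 0.06, adjusted p = 0.212) and lies outside the rule for named genes. RSP5, the ubiquitin ligase known to release Spt23 and Mga2 from the membrane, rose (0.25 ± 0.06, adjusted p = 0.0153). SPT23 was not called without WT replicate 1 (adjusted p = 0.0578) or 2 (0.0585), nor RSP5 without WT replicate 1 (0.0587), WT replicate 2 (0.102) or nhp6ab replicate 1 (0.0654). Of the general regulatory factors, RAP1 (0.45 ± 0.05) and REB1 (0.42 ± 0.05) rose and ABF1 fell (-0.38 ± 0.05), the last without a call on log2(TPM + 1) (-0.08, adjusted p = 0.309).

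The lists of partners that feed or complete the pathway hold few genes, and their counts stand beside 25.0% lower and 24.5% higher among all genes. Of 3 acetyl-CoA supply genes 2 fell: ACS2, the acetyl-CoA synthetase used in glucose, went from 450 ± 2.19 to 326 ± 4.46 CPM (SD, n = 2 each; -0.47 ± 0.06 SE, edgeR adjusted p = 0.000671). ALD6, the cytosolic aldehyde dehydrogenase that makes acetate, went from 1350 ± 66.5 to 819 ± 191 CPM (-0.72 ± 0.14, adjusted p = 0.00556) and lost its call without WT replicate 1 (0.0533) or 2 (0.0709). Both lost their call on log2(TPM + 1) (adjusted p = 0.069 and 0.0537). Of the 3 other enzymes of the elongation cycle, the dehydratase gene PHS1 (-0.22 ± 0.06) and the enoyl reductase gene TSC13 (-0.21 ± 0.06) fell, and both turned to positive values of 0.07 and 0.09 on log2(TPM + 1), TSC13 also to 0.0055 with library size alone. PHS1 lost its call without WT replicate 1 (adjusted p = 0.152), and TSC13 without WT replicate 1 (0.0646), WT replicate 2 (0.0846) or nhp6ab replicate 2 (0.0674).

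Of 6 other genes of acyl-CoA handling 3 fell and 0 rose, against the same all-gene shares of 25.0% lower and 24.5% higher. FAA3, a further acyl-CoA synthetase, had 73.1 ± 5.98 CPM in WT and 36.3 ± 4.55 CPM in nhp6ab (SD, n = 2 each) and fell (-1.01 ± 0.10 SE, edgeR adjusted p = 0.000263). ACB1, the acyl-CoA binding protein that carries the synthase's products, fell from 263 ± 4.92 to 153 ± 4.42 CPM (-0.79 ± 0.06, adjusted p = 8.31e-05). MGL2, a relative of EHT1, fell (-0.27 ± 0.06, adjusted p = 0.00756) but not without WT replicate 1 (0.0521), and its value was 0.02 on log2(TPM + 1). 

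Of 9 genes for cofactor attachment and mitochondrial fatty acid synthesis, a separate bacterial-type pathway, 4 fell and 2 rose, beside 25.0% lower and 24.5% higher among all genes. HTD2, its dehydratase, had 25.2 ± 0.41 CPM in WT and 11.9 ± 0.32 CPM in nhp6ab (SD, n = 2 each) and fell (-1.08 ± 0.08 SE, edgeR adjusted p = 8.9e-05). OAR1, the reductase, had 6.14 ± 0.14 and 4.32 ± 0.46 CPM (-0.51 ± 0.16, adjusted p = 0.0341), and was not called without WT replicate 1 (0.109), WT replicate 2 (0.121) or nhp6ab replicate 1 (0.0873) or in DESeq2 (0.0857). BPL1, the ligase that attaches biotin to Acc1 (-0.29 ± 0.06), and ACP1, the mitochondrial acyl carrier (-0.19 ± 0.05), fell, but were at 0.0043 and 0.10 on log2(TPM + 1). BPL1 lost its call without WT replicate 1 (adjusted p = 0.083), and ACP1 without WT replicate 1 (0.0874) or 2 (0.101). MCT1, the malonyl transferase, rose (0.30 ± 0.05, adjusted p = 0.00333). CEM1, the condensing enzyme, had 61.1 and 66.2 CPM in WT and 115 and 82.1 CPM in nhp6ab (0.63 ± 0.14, adjusted p = 0.0106), with 0.36 without nhp6ab replicate 1 and no call without WT replicate 1 (0.118) or 2 (0.079).

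Of 15 genes of peroxisomal beta-oxidation and its activators 6 rose and 4 fell (median -0.02). These are 40.0% higher and 26.7% lower, where all genes had 24.5% and 25.0%, so the share lower is near that of all genes. PXA1, a subunit of the peroxisomal acyl-CoA transporter (-1.11 ± 0.09 SE), ANT1, the peroxisomal nucleotide carrier (-0.84 ± 0.06), and PEX11, a peroxisome division factor (-0.35 ± 0.06), fell in edgeR. OAF1, an activator of these genes (0.58 ± 0.06), CTA1, the peroxisomal catalase (0.35 ± 0.06), and DCI1, an isomerase relative (0.41 ± 0.09), rose, DCI1 without a call when WT replicate 1 was left out (adjusted p = 0.0787). PEX11 lost its call with library size alone (-0.14, adjusted p = 0.0945). Of 17 genes that build acyl-CoA into glycerolipids, storage lipids and sphingolipids, 5 rose and 3 fell (median -0.01), or 29.4% and 17.6%, both within a few genes of the all-gene shares. GPT2, a glycerol-3-phosphate acyltransferase, rose from 54.1 ± 2.63 to 84.6 ± 5.82 CPM (SD, n = 2 each; 0.64 ± 0.07), and the sphingolipid genes LCB2 (0.56 ± 0.05), LAC1 (0.49 ± 0.06) and SCS7 (0.25 ± 0.05) rose with it, SCS7 without a call when WT replicate 1 was left out (adjusted p = 0.0599). ALE1, a lysophospholipid acyltransferase (-0.32 ± 0.05), and AUR1, the inositolphosphorylceramide synthase (-0.31 ± 0.06), fell but were not called with library size alone (adjusted p = 0.171 and 0.236). Over the 63 related genes together 22 were lower and 17 higher, or 34.9% and 27.0% against 25.0% and 24.5% of all genes, with a median of -0.08. Without WT replicate 1 the counts were 11 and 9, as all genes went to 1063 lower and 901 higher. Without WT replicate 2 they were 16 and 10, beside 1104 and 918 of all genes, and with library size alone 9 and 27, beside 800 and 3023.

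**Figure D5:**
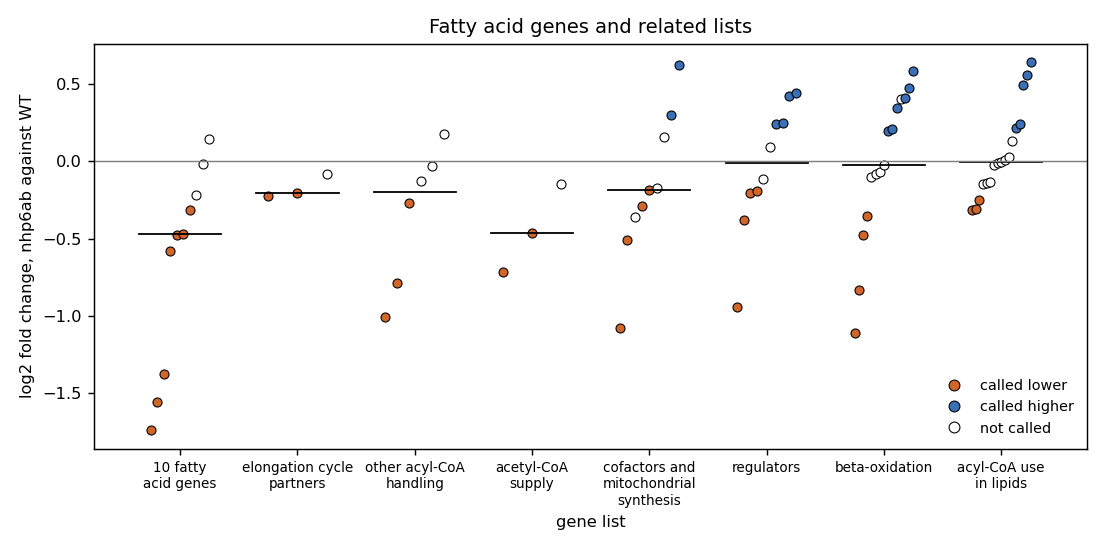
Log2 fold change of nhp6ab against WT for the 10 fatty acid genes and the genes of 7 related lists, each point a gene (orange called lower, blue called higher, white not called) and each line the list's median. The medians are -0.47 for the 10 genes and -0.47 for the 3 acetyl-CoA supply genes, and between -0.21 and -0.01 for the other lists.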

How the data were processed

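Polyadenylated RNA of 2 WT and 2 nhp6ab libraries was compared, grouped by the titles in the labels. The authors deposited RSEM expected counts and TPM per gene, as the deposited sheets are named. Per the submitters' processing notes, sacCer3 was the genome build. For the aligner, RSEM version, annotation and use of strand, the entry is: not given in the sources used here. The 4 lines without an identifier were left out, and 6005 of 6688 identifiers matched R64.

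After rounding, the expected counts went into edgeR 4.0.16 (R 4.3.3) with TMM factors, a filter (minimum count 10, minimum total 15) and a model of strain alone with 2 residual degrees of freedom. The quasi-likelihood test was adjusted over 6422 genes by the Benjamini-Hochberg method, with calls at 0.05. A standard error is the size of the log2 fold change over the square root of its F. Replicates differed by more than counting noise (chi-square per degree of freedom 24.4 in WT, 22.3 in nhp6ab).

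The 10 genes and the 7 related lists were chosen with earlier results of these data known. The rule for named genes took the 10, NHP6A, NHP6B and from each list the called genes of smallest adjusted p, at most 6. The motif search was planned on a promoter table. It used the genome instead, with windows of 500 and 1000 bases. Alternatives used DESeq2 1.42.0, limma 3.58.1 and other scalings. Sequence work used Biopython 1.88 and BLAST+ 2.17.0.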

Additional observations from a re-analysis of the deposited data

How the results depend on the processing

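Of the 10 genes, EHT1, FAS1, FAS2 and ACC1 kept their direction and call under each of the 14 alternatives. The number called lower was 7 in the reported fit, 6 with library size alone, 4 on log2(TPM + 1) and on log2(TPM + 0.1), and 6 to 8 when a library was left out. The number called higher was 2 with library size alone and on either TPM scale, and 0 otherwise, as when a library was left out. The median over the 10 genes was -0.26 with library size alone, -0.18 on both TPM scales, -0.49 with upper quartile factors, and -0.49 to -0.46 when a library was left out. With library size alone 27 related genes were called higher and 9 lower, against 30 and 6 on both TPM scales and 9 to 16 and 11 to 21 when a library was left out. Over all genes, library size alone gave 3023 higher and 800 lower calls, against 3498 and 594 on log2(TPM + 1), 3403 and 574 on log2(TPM + 0.1), and 901 to 1462 and 1063 to 1557 when a library was left out, lowest without WT replicate 1. These scalings move the median of all genes to 0.22, 0.28 and 0.30.

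Values that turned positive with library size alone were FAA1 (0.19), TSC13 (0.0055), ACP1 (0.024), INO4 (0.0065) and OPI1 (0.021). On log2(TPM + 1) they were FAA1 (0.27), FAA4 (0.075), PHS1 (0.074), TSC13 (0.086), MGL2 (0.021), BPL1 (0.0043), ACP1 (0.10), INO4 (0.087) and OPI1 (0.097), and on log2(TPM + 0.1) FAA1 (0.27), FAA4 (0.076), PHS1 (0.075), TSC13 (0.087), MGL2 (0.021), BPL1 (0.0044), ACP1 (0.105), INO4 (0.088) and OPI1 (0.099). A lone library is assumed to vary like the other strain's. The replicate numbers share only a number: the correlation of same-numbered deviations was -0.07, and a replicate block called 8 of the 10 genes lower, adding FAA4 (adjusted p = 0.0451), and 1626 genes higher and 1686 lower overall. With 2 libraries a strain, small differences such as those of ELO3 and FAA4 were not resolved.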
